A study of Mus musculus with 8 samples.

Results

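The genes described here encode the chains of collagens and laminins, the main fibre- and sheet-forming proteins of the extracellular matrix. They were chosen by name, as every locus named Col, a number, a and a number, or Lama, Lamb or Lamc and a number. A chain gene also had to reach a normalised value of at least 10 in 2 or more of the 8 libraries. Of 55 chain genes found by name among 52281 named loci, 46 passed, 35 of them collagen and 11 laminin genes. The 46 were read from a fit over all 16623 loci that passed the same minimum.

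Collagens are trimers of alpha chains. Fibrillar collagens such as types I, III and V assemble into the fibres of connective tissue, type II with types IX and XI builds the fibrils of cartilage, and type IV forms the network of basement membranes, the thin sheets beneath epithelia and around vessels and muscle. Laminins are trimers of an alpha, a beta and a gamma chain that start the assembly of a basement membrane on the cell surface, and in the early mouse embryo parietal endoderm is a rich source of both type IV collagen and laminin.

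RNA was measured in mouse embryoid bodies, aggregates of differentiating embryonic stem cells, on day 9 and on a C57BL/6 background. All were grown in Knock-out DMEM, a basal medium, with 10% fetal bovine serum and no agent that differed between groups in the labels. Prdm16 encodes a zinc finger transcription factor with an N-terminal PR domain related to histone methyltransferase domains. The Prdm16 knockout (genotype PRDM16 KO) was set against a wild-type set of its own, called the Prdm16 control here. The PR domain knockout (genotype PR domain KO, titled as exon 4) was set against a second wild-type set, the PR domain control. Each group had 2 libraries. The labels do not say whether these came from separate cultures or how many knockout clones were used, so p-values measure the spread between libraries, which may be technical, and a knockout cannot be told apart from the line that carries it.

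Libraries held 6273789 to 9086885 fragments on named loci. Levels are fragments divided by a size factor per library (normalised fragments), and library values are given as replicate 1 and then replicate 2. Differences are log2 fold changes ± SE from limma on log2(normalised fragments + 1), called at a Benjamini-Hochberg adjusted p below 0.05. Prdm16 itself stood at 24.4 and 26.3 in the Prdm16 control and at 11.2 and 1.10 in its knockout. It stood at 44.6 and 22.7 in the PR domain control and at 23.3 and 15.7 in that knockout, where the drop was not called (adjusted p = 0.377). The summed level of 4 Y-linked genes was 1246 and 1323 in the Prdm16 control and 0 and 1.10 in its knockout, and it was 2750.5 to 3167 in the other libraries. The part of this difference in any result was not tested.

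The stretches upstream of 4 chain genes are shown because their genes contrast in layout or moved together. Col3a1 and Col5a1 are fibrillar genes that rose in both knockouts, and Col4a5 and Col4a6 are neighbours on chromosome X transcribed away from each other. Sequences are RefSeq's (GRCm38.p6), 5′ to 3′ on the strand of the gene, ending at the first annotated exon. Capitals mark 3 motifs that were searched on both strands. TATAAA is the core of the TATA box. CCAAT names the CCAAT box. GGGCGG is the core of the GC box, and its reverse complement is marked as well.
Col3a1, chr1:45311288-45311537, + strand: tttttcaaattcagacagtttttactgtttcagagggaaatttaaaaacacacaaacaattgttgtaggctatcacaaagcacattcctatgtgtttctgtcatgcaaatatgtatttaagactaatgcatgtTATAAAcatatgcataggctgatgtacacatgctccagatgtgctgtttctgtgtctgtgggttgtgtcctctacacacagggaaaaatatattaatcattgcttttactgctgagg
Col5a1, chr2:27886175-27886424, + strand: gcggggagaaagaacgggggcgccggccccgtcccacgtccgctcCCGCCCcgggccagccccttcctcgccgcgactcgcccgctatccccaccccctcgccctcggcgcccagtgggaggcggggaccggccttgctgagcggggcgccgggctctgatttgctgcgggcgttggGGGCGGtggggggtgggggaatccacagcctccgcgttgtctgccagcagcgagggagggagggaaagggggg
Col4a5, chrX:141475169-141475384, + strand: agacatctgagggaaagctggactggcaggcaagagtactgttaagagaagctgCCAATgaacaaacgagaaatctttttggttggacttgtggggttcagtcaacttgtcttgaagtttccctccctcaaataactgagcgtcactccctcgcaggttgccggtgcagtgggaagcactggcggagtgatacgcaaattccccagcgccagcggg
Col4a6, chrX:141474077-141474326, - strand: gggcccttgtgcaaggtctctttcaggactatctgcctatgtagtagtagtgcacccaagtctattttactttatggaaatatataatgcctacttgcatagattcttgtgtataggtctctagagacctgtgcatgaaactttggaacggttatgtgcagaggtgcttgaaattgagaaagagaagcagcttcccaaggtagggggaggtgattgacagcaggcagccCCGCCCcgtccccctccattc
The Col3a1 stretch held 1 TATAAA and no GGGCGG, whereas the Col5a1 stretch held 2 GGGCGG and no TATAAA. The Col4a5 stretch held 1 CCAAT and the Col4a6 stretch 1 GGGCGG. RefSeq windows matched 32 of the 46 genes. TATAAA lay in 4 of their 36 windows of 250 bases and in 12.4% of all 32851 windows. CCAAT lay in 12 of the 36 and in 33.8% of all windows. GGGCGG lay in 20 of the 36 and in 32.7% of all windows. No marked motif overlaps another in these stretches, and a match is not a binding site.

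Per transcript length, fibrillar and basement membrane chains stood highest. Col3a1 had a mean of 2685 FPKM over the 8 libraries (lowest 2023, highest 3382), although its locus is shared with the gene model Gm47302. Col1a1 followed with 534 FPKM (321 to 788) and Col1a2 with 468 (356 to 669.5), and their ranges overlapped. By fragments the lead of Col3a1 was much smaller. In the Prdm16 control it took 0.379% of fragments on named loci, beside 0.182% for Col1a1 and 0.216% for Col1a2 (means of 2 libraries). The cause of this gap between the measures was not tested. The basement membrane chains Col4a1, at 315 FPKM (222 to 384), and Col18a1, at 199.6 (179 to 229), came next, then the fibrillar Col5a2 at 177 and the basement membrane Col4a2 at 126 (94.3 to 156). Lamc1 had the highest mean of the laminin genes, at 103 FPKM (87.8 to 115), before Lamb1 at 88.1 (77.7 to 98.4) and Lama5 at 53.0 (42.9 to 66.2). The ranges of Lamc1 and Lamb1 overlapped, and in the Prdm16 knockout Lamb1 had the higher mean (98.1 against 94.3). At the other end Lama3 had 0.411 FPKM (0.180 to 0.763). Together the 46 genes and the 9 that failed the minimum took 1.51% of fragments in the Prdm16 control, 1.70% in its knockout, 2.00% in the PR domain control and 2.38% in the PR domain knockout (means of 2 libraries).

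**Figure D1:**
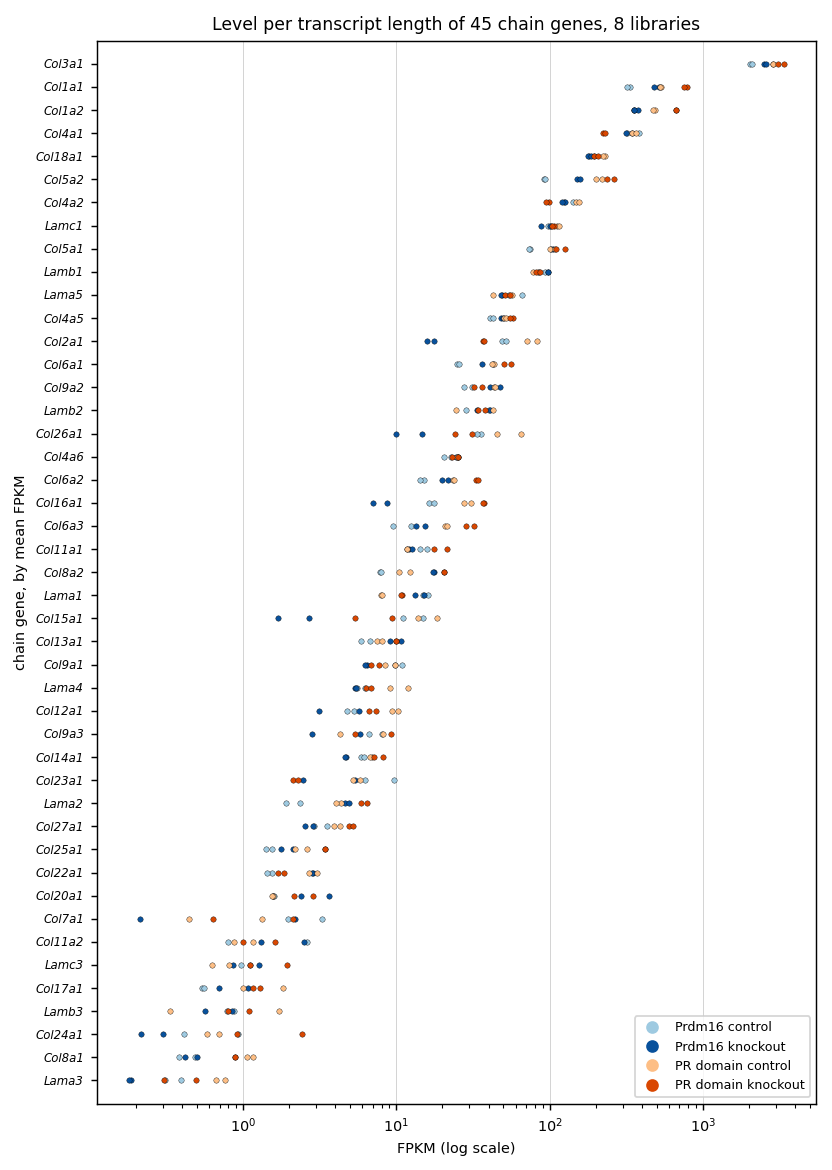
Deposited FPKM (log scale) of 45 of the chain genes in each of the 8 libraries, coloured by group and ordered by mean. Col3a1 lies apart at the top with 2023 to 3382 FPKM, and Lama3 is lowest at 0.180 to 0.763.

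The 9 chain genes that failed the minimum were Col10a1, Col19a1, Col28a1, Col4a3, Col4a4, Col5a3, Col6a4, Col6a5 and Col6a6. Col28a1 had no fragment in any library, and Col10a1, the collagen of hypertrophic cartilage, reached at most 1.65. The nearest to passing were Col4a3, with 12.6 in 1 PR domain knockout library and 7.44 in the other, and Col4a4, with at most 10.3. Just inside were Col24a1 (11.0 to 25.6), Col17a1 (10.3 to 22.3), Lamb3 (12.4 to 35.0) and Col7a1 (9.93 to 31.0). Except for Col7a1, each gene that passed had at least 10 in all 8 libraries.

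In the Prdm16 knockout 30 of the 46 genes were called, 17 higher and 13 lower, where 39.1% of all loci were called (18.0% higher, 21.1% lower). In the PR domain knockout 29 were called, 15 higher and 14 lower, against 19.2% of all loci (8.48% higher, 10.7% lower). The median log2 fold change of the 46 was -0.06 and 0.08, beside -0.03 in each knockout for all loci, so the chain genes moved in both directions with little net shift. Changes of at least 1 on the log2 scale were called for 6 genes in the Prdm16 knockout (7.21% of all loci) and for 2, Col15a1 and Col26a1, in the PR domain knockout (3.20% of all loci). Both knockouts called 21 genes, 45.7% of the 46 beside 12.9% of all loci. These were 70.0% of the Prdm16 calls, where the share over all loci was 32.9%, and 72.4% of the PR domain calls, where it was 67.1% and so about as high. Of these 21, 11 were higher in both, 9 were lower in both, and Col9a2 was higher in one and lower in the other (for all loci 11.6% shared a direction and 1.28% did not). Calls were fewer on log2(FPKM + 1), at 16 (Prdm16) and 8 (PR domain) chain genes, and most of those lost there are given by gene. These are whole aggregates, so fewer cells of a type and less RNA per cell cannot be told apart.

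**Figure D2:**
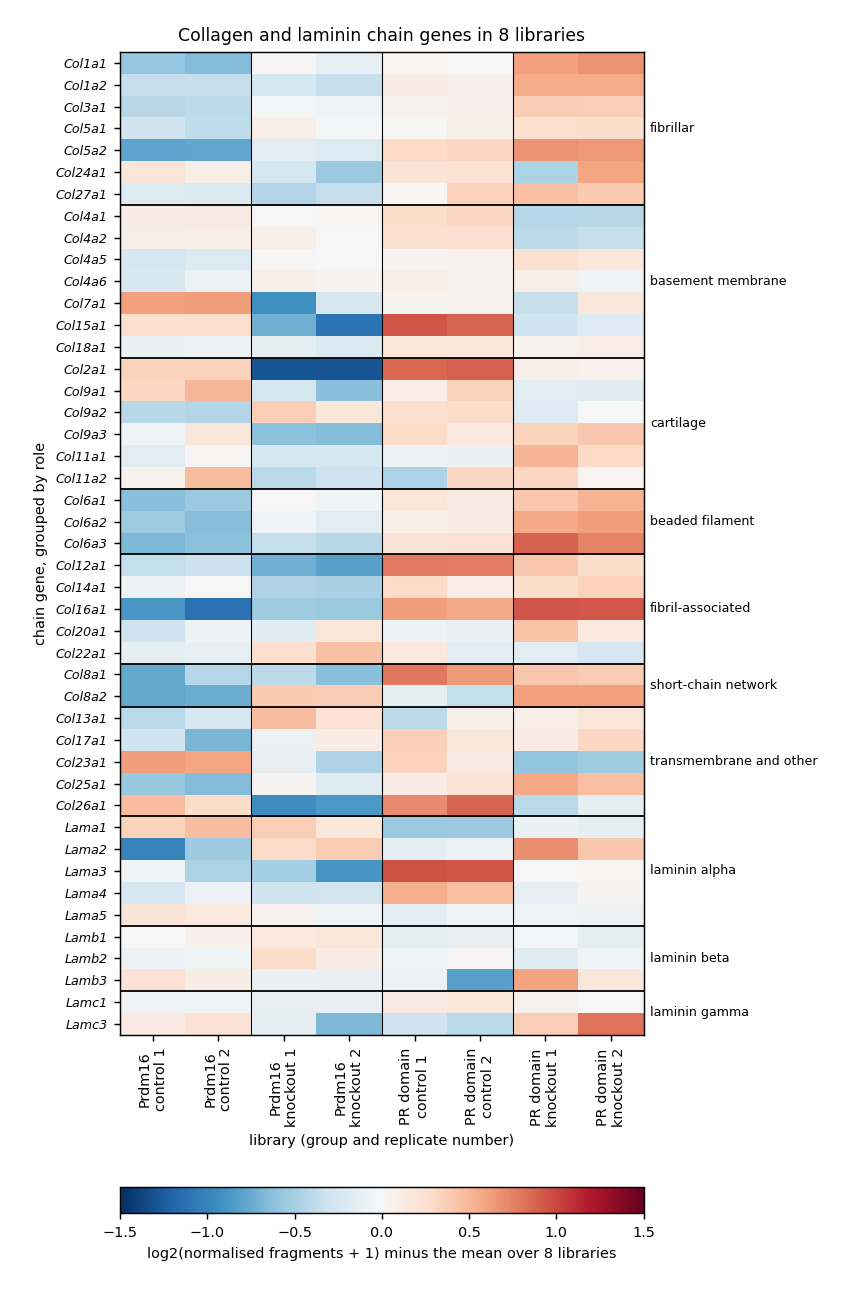
log2(normalised fragments + 1) minus the mean over 8 libraries, for 45 of the chain genes (rows, by role, with Col2a1 and the Col11 genes under cartilage) in each library (columns, 2 per group). Red is above and blue below the gene's mean, and Col1a1, Col3a1 and the Col6 genes pass from blue in the Prdm16 control to red in the PR domain knockout, while Col15a1, Col2a1 and Col26a1 are bluest in the Prdm16 knockout.

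**Figure D3:**
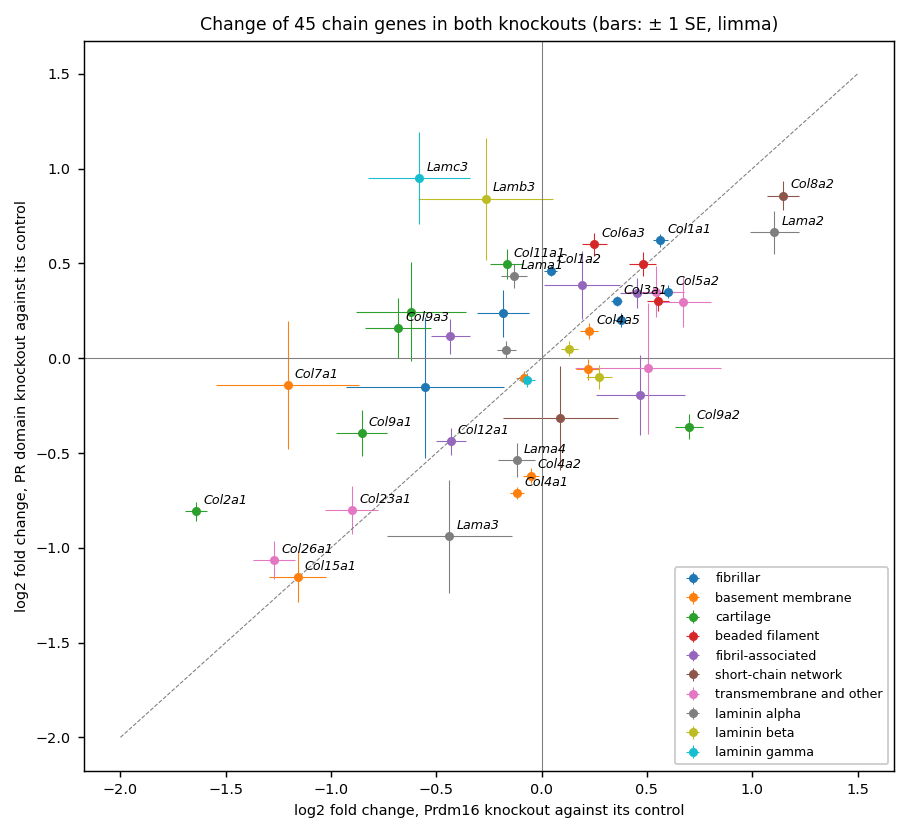
log2 fold change ± SE of 45 of the chain genes in the Prdm16 knockout (horizontal) and in the PR domain knockout (vertical), each against its own control, coloured by role. Col15a1 and Col26a1 lie at the lower left, Lama2 and Col8a2 at the upper right, and Col9a2 at the lower right (0.70 and -0.36).

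Among the fibrillar collagens, 10 of 11 genes were tested. In the Prdm16 knockout 4 rose and 1 fell (median -0.06, 39.1% of all loci called), and in the PR domain knockout 6 rose and 1 fell (median 0.27, 19.2% of all loci called). Col1a1, Col3a1, Col5a1 and Col5a2 rose in both, and Col2a1, which belongs to cartilage as well, fell in both. Col1a1, the alpha-1 chain of type I collagen, was at 14213 and 13489.9 normalised fragments in the Prdm16 control and at 21458 and 19524 in its knockout. It was at 21643 and 21333 in the PR domain control and at 32384 and 33794 in that knockout, so neither knockout overlapped its control. The change was 0.56 ± 0.03 (adjusted p = 4.78e-14) and 0.62 ± 0.03 (adjusted p = 8.99e-15). Col1a2, its partner in the type I trimer, had 16505 and 16454 in the Prdm16 control, 17449 and 16509 in its knockout, 22744 and 22070.0 in the PR domain control and 30778 and 30973 in the PR domain knockout. Knockout and control nearly touched in the Prdm16 set and lay far apart in the PR domain set. The rise of 0.46 ± 0.03 in the PR domain knockout was called (adjusted p = 2.06e-13), the 0.04 ± 0.03 in the Prdm16 knockout was not (adjusted p = 0.257), and TMM scaling gave a called 0.09 there. The 2 effects on Col1a2 differed by -0.42 ± 0.04 (Prdm16 minus PR domain, adjusted p = 6.27e-09), in a test that called 16.4% of all loci.

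Col3a1, the homotrimeric collagen of loose and elastic tissue, stood at 28580.5 and 29103 normalised fragments in the Prdm16 control, 37236 and 36592 in its knockout, 39878 and 40153 in the PR domain control and 49493 and 49149.6 in the PR domain knockout. Each group stood apart from the next, and the rises were 0.36 ± 0.02 (adjusted p = 7.88e-13) and 0.30 ± 0.02 (adjusted p = 6.45e-11). Type V collagen seeds type I fibrils and limits their width. Its Col5a2 chain had 3808 and 3837 in the Prdm16 control, 5903 and 5681 in its knockout, 8119 and 8149 in the PR domain control and 10450.5 and 10284 in the PR domain knockout. That order repeats Col3a1's, with rises of 0.60 ± 0.03 (adjusted p = 8.43e-15) and 0.35 ± 0.03 (adjusted p = 2.84e-09), and the effects differed by 0.25 ± 0.05 (adjusted p = 0.000368). Col5a1 ran from 4837 to 5089 in the Prdm16 control, 6192 to 6707 in its knockout, 6362 to 6663 in the PR domain control and 7446 to 7531 in the PR domain knockout. It rose by 0.38 ± 0.04 (adjusted p = 3.58e-09) and 0.20 ± 0.04 (adjusted p = 0.000224). The lower fibrillar genes Col11a2 (28.4 to 55.5), Col24a1 (11.0 to 25.6) and Col27a1 (125 to 233) were called in neither knockout. On FPKM values the rises of Col3a1 (0.17), Col5a1 (0.17) and Col5a2 (0.25) in the PR domain knockout were not called.

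**Figure D4:**
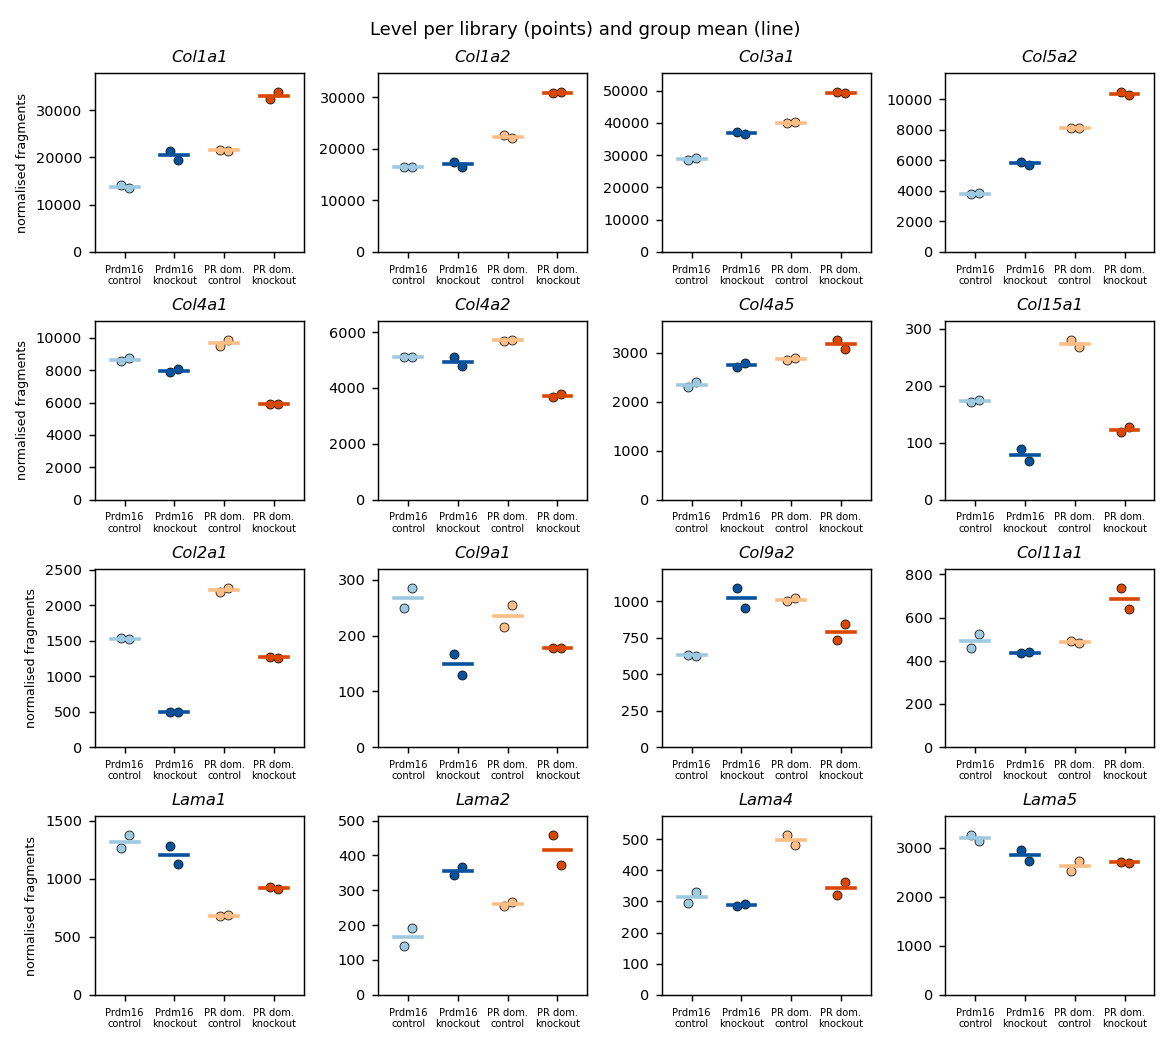
Normalised fragments of 16 chain genes in each library (points, 2 per group) with the group mean (line), each panel on its own axis from 0. Col1a1, Col3a1 and Col5a2 step up in each knockout, Col4a1 and Col4a2 drop in the PR domain knockout to 5916 or less and 3769 or less, and Col2a1 drops in both, to 491 or less and 1277 or less.

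Markers of fibroblasts and mesenchyme moved beside the fibrillar genes, without moving as 1 group. Their summed level was 19962 and 20213 in the Prdm16 control, 34746 and 35885 in its knockout, 25675 and 25267 in the PR domain control and 31249 and 30634 in the PR domain knockout. Of 9 markers, 4 rose and 3 fell in the Prdm16 knockout and 5 rose and 2 fell in the PR domain knockout. The shares called over all loci were 39.1% and 19.2%. Most of the sum is Postn, at 12554 to 25609 over the 8 libraries, whereas the mesenchymal homeobox gene Prrx1 went from 194 and 203 to 43.4 and 41.8 in the Prdm16 knockout and from 279.9 and 268 to 145 and 129 in the PR domain knockout. The part of these cells in the fibrillar result was not tested.

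All tested genes of type VI collagen, which forms beaded filaments around cells, rose in both knockouts (3 of 3, medians 0.48 and 0.50). Col6a1 stood at 881 and 919.8 normalised fragments in the Prdm16 control, 1349 and 1293 in its knockout, 1545 and 1494 in the PR domain control and 1803 and 1953 in the PR domain knockout. The groups did not overlap, with rises of 0.55 ± 0.05 (adjusted p = 1e-09) and 0.30 ± 0.05 (adjusted p = 6.57e-05). Col6a2, the second chain of the trimer, went from 533 and 494 to 748 and 687 in the Prdm16 knockout and from 820.4 and 831 to 1146 and 1189 in the PR domain knockout, or 0.48 ± 0.06 (adjusted p = 4.23e-07) and 0.50 ± 0.06 (adjusted p = 5.39e-07). Col6a3, the longest chain, went from 558 and 580.3 to 692 and 662 and from 1015 and 1041 to 1643 and 1482. Its rise was smaller in the Prdm16 knockout, at 0.25 ± 0.06 (adjusted p = 0.00148), than in the PR domain knockout, at 0.60 ± 0.06 (adjusted p = 7.85e-09), a difference of -0.35 ± 0.09 (adjusted p = 0.00479). The calls of Col6a1 in the PR domain knockout (0.32, adjusted p = 0.171) and of Col6a3 in both (0.38 and 0.50, adjusted p = 0.141 and 0.134) were lost on log2(FPKM + 1).

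The basement membrane collagens split within the group. Of 7 tested genes, 2 rose and 4 fell in the Prdm16 knockout (median -0.09, 39.1% of all loci called), and 1 rose and 4 fell in the PR domain knockout (median -0.14, 19.2% of all loci called). Col4a1 and Col4a2 encode the chains of the ubiquitous type IV network and lie head to head on chromosome 8, Col4a1 at chr8:11198423-11312826 on the - strand and Col4a2 at chr8:11312805-11449287 on the + strand. Their starts are 21 bases apart and their transcribed ends overlap, and without a stated strand setting their reads may not be separable there. Col4a1 stood at 8561 and 8731 normalised fragments in the Prdm16 control, 7911 and 8052 in its knockout, 9486 and 9866 in the PR domain control and 5895 and 5916 in the PR domain knockout. Col4a2 had 5125 and 5115, then 5093 and 4786, then 5692 and 5716, then 3658 and 3769 in the same groups. Both genes were lowest in the PR domain knockout and highest in its control. There they fell by 0.71 ± 0.03 (adjusted p = 1.6e-16) and 0.62 ± 0.04 (adjusted p = 9.13e-14) on the log2 scale.

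In the Prdm16 knockout the changes of this pair were small. Col4a1 stood at -0.12 ± 0.03 (adjusted p = 0.00567) and Col4a2 at -0.05 ± 0.04, which was not called (adjusted p = 0.284). The Col4a1 call was lost with TMM scaling (-0.07), with DESeq2 scaling (-0.08), on log2(FPKM + 1) (-0.09), without Prdm16 control replicate 2 (-0.10) and without Prdm16 knockout replicate 1 (-0.10). The effects of the 2 knockouts differed by 0.60 ± 0.05 for Col4a1 (adjusted p = 4.85e-11) and by 0.57 ± 0.05 for Col4a2 (adjusted p = 2.72e-09). Markers of endothelium, cardiomyocytes and smooth muscle were lower beside them in the PR domain knockout. Of all loci, 10.7% were called lower there and 21.1% in the Prdm16 knockout. The summed level of endothelial markers, genes of the vessel lining, was 6746 and 6935 in the PR domain control and 4899 and 4805 in the knockout, with 7 of 7 lower. Cardiomyocyte markers summed to 11271 and 11009 against 4837 and 4781, with 6 of 6 lower, and smooth muscle markers to 10434 and 10149.5 against 6390 and 6479, with 3 of 4 tested lower. In the Prdm16 set the endothelial sum was 4924 and 4859 against 4411 and 4573 (2 higher, 4 lower), the cardiomyocyte sum 4582 and 4872 against 3150 and 3228 (none higher, 4 lower) and the smooth muscle sum 5514 and 5744 against 6234 and 6143 (1 higher, 2 lower). Parietal endoderm markers summed to 14006 and 13778 against 15703 and 15762 in the PR domain set and to 11452 and 11169 against 15107 and 15111 in the Prdm16 set, mostly through Sparc, itself a matrix gene. Of these 4 markers, 1 was higher and 1 lower in the PR domain knockout, and 2 were higher and 1 lower in the Prdm16 knockout. Thbd fell in both, from 155 and 125 to 52.9 and 55.4 (PR domain) and from 57.3 and 46.1 to 14.9 and 15.4 (Prdm16). Pth1r rose in the Prdm16 knockout, from 509 and 503 to 757 and 777 (0.60 ± 0.08, adjusted p = 1.82e-07). It was not called in the PR domain knockout (0.17 ± 0.08, adjusted p = 0.118). The part of these cells in the type IV result was not tested.

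Col4a5 and Col4a6 encode the chains of a type IV network found in smooth muscle and some epithelial membranes, and they start 1343 bases apart on chromosome X. The 2 stretches shown above share none of the 3 motifs, but the Col4a5 stretch was ended at 216 bases by an annotated exon. In the whole window of 250 bases each gene held 1 GGGCGG. Col4a5 stood at 2299.6 and 2399 normalised fragments in the Prdm16 control, 2703 and 2790.2 in its knockout, 2848 and 2889.8 in the PR domain control and 3259 and 3084 in the PR domain knockout. It was higher in each knockout without overlap, by 0.23 ± 0.04 (adjusted p = 9.05e-05) and 0.14 ± 0.04 (adjusted p = 0.0153). The second call was lost without PR domain control replicate 1 (0.13), PR domain control replicate 2 (0.15) or PR domain knockout replicate 1 (0.10). Col4a6 had 1198 and 1316, then 1488 and 1435, then 1482 and 1467, then 1481 and 1352 in the same groups, and only the Prdm16 knockout stood clear of its control. It rose there by 0.22 ± 0.06 (adjusted p = 0.00205), a call lost without Prdm16 control replicate 1 (0.15), and stood at -0.06 ± 0.06 in the PR domain knockout (adjusted p = 0.529). All 3 calls of the pair were lost on log2(FPKM + 1) (0.22 and 0.14 for Col4a5, 0.20 for Col4a6). Both genes are X-linked, and the Y-linked genes differed between the Prdm16 sets as given above.

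Col15a1 and Col18a1 encode collagens that tie basement membranes to the matrix beneath. Col15a1 stood at 172 and 174 normalised fragments in the Prdm16 control, 88.1 and 67.1 in its knockout, 279.9 and 267 in the PR domain control and 118 and 127 in the PR domain knockout. The libraries of each knockout lay far under those of its own control. The fall was 1.16 ± 0.13 on the log2 scale in the Prdm16 knockout (-1.16, adjusted p = 3.85e-08) and almost the same in the PR domain knockout (-1.15 ± 0.13, adjusted p = 9.99e-08). On FPKM values it was -2.14 and -1.07, and the second was not called. Col18a1, far more abundant at 6814 to 8998, stood at -0.09 ± 0.03 (adjusted p = 0.0469) and -0.10 ± 0.03 (adjusted p = 0.031). Both Col18a1 calls were lost under TMM scaling (-0.04 and -0.08) and when single libraries were left out (-0.10 to -0.04 and -0.11 to -0.08). Neither Col18a1 change was called on log2(FPKM + 1) (-0.05 and -0.17). Col7a1, the anchoring fibril collagen, had 30.7 and 31.0 in the Prdm16 control and 9.93 and 16.5 in its knockout, a fall at low depth of -1.21 ± 0.34 (adjusted p = 0.00513) that was not called without Prdm16 knockout replicate 1 (-0.87) or on log2(FPKM + 1) (-0.86). Its locus is shared with the microRNA gene Mir711, and it had 20.3 and 20.6 against 15.3 and 22.3 in the PR domain set (-0.14 ± 0.34, adjusted p = 0.841).

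Cartilage collagens fell more often than they rose. Of 6 tested genes, 3 of which are fibrillar too, 1 rose and 3 fell in each knockout, with medians of -0.65 and -0.10. In the Prdm16 knockout 39.1% of all loci were called (18.0% higher, 21.1% lower), and in the PR domain knockout 19.2% (8.48% higher, 10.7% lower). The gene that rose was Col9a2 in the Prdm16 knockout and Col11a1 in the PR domain knockout. Col2a1, the main fibrillar collagen of cartilage and also a notochord gene, stood at 1534 and 1528 normalised fragments in the Prdm16 control, 491 and 489.6 in its knockout, 2189.5 and 2249.9 in the PR domain control and 1277 and 1258 in the PR domain knockout. The replicates nearly coincided and the groups were widely separated. Its fall was the largest of any chain gene in the Prdm16 knockout, at -1.64 ± 0.05 (adjusted p = 3.35e-21), and was -0.81 ± 0.05 in the PR domain knockout (adjusted p = 3.31e-13). The effects differed by -0.83 ± 0.07 (adjusted p = 6.59e-10).

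Type IX collagen decorates type II fibrils and is a trimer of the products of Col9a1, Col9a2 and Col9a3, and these genes did not move together. Col9a1 went from 250.2 and 286 to 167 and 129.8 in the Prdm16 knockout and from 216 and 255 to 179 and 178 in the PR domain knockout. It fell in both, at -0.85 ± 0.12 (adjusted p = 1.49e-06) and -0.40 ± 0.12 (adjusted p = 0.0202), but the second call was lost without PR domain control replicate 2 (-0.28), PR domain knockout replicate 1 (-0.40) or PR domain knockout replicate 2 (-0.39). Col9a2 had 634 and 625 in the Prdm16 control and 1093 and 957 in its knockout, against 1002 and 1022 in the PR domain control and 737 and 842 in the PR domain knockout. Its knockout libraries lay above their control in one set and under it in the other. It rose by 0.70 ± 0.07 (adjusted p = 1.12e-09) in the Prdm16 knockout, fell in the PR domain knockout (-0.36 ± 0.07, adjusted p = 0.000177), and the effects differed by 1.06 ± 0.10 (adjusted p = 1.29e-09). Col9a3 went from 90.1 and 104 to 60.8 and 59.4 in the Prdm16 knockout (-0.68 ± 0.16, adjusted p = 0.000865) and from 114 and 104 to 118 and 125 in the PR domain knockout (0.16 ± 0.16, adjusted p = 0.557). The PR domain calls of Col9a1 (-0.29) and Col9a2 (-0.35) and the Prdm16 call of Col9a3 (-0.70) were lost on log2(FPKM + 1).

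Col11a1, whose product joins type II fibrils in cartilage and type I or V fibrils elsewhere, stood at 460.1 and 525 normalised fragments in the Prdm16 control, 437 and 439 in its knockout, 489.8 and 481 in the PR domain control and 738 and 638 in the PR domain knockout. Only the PR domain knockout stood out, with a rise of 0.50 ± 0.08 (adjusted p = 1.49e-05). The Prdm16 knockout stood at -0.17 ± 0.08 (adjusted p = 0.0953), which was called without Prdm16 control replicate 1 (-0.26). Most defining genes of chondrocytes were near 0 beside these values. Of 9 chondrocyte markers 8 were in the table and 5 of these were not tested for low values, and Acan, the main cartilage proteoglycan gene, had at most 1.88. The summed level was 810 and 862 in the Prdm16 control, 541 and 496 in its knockout, 759 and 747 in the PR domain control and 516 and 532 in the PR domain knockout, mostly through Hapln1. Notochord markers differed within their list of 4. T, a gene of early mesoderm and notochord, went from 31.8 and 30.1 to 1.24 and 3.30 in the Prdm16 knockout (-3.36 ± 0.59, adjusted p = 2.85e-05), and Shh, a signal secreted by notochord and floor plate, from 66.8 and 56.4 to 16.1 and 18.7 (-1.76 ± 0.23, adjusted p = 3.43e-07). Neither was called in the PR domain knockout (adjusted p = 0.886 and 0.425). There only Foxa2 was called, higher (0.84 ± 0.21, adjusted p = 0.00318), and Noto was at 0 in all libraries. The list summed to 205 and 181 against 146 and 139.7 in the Prdm16 set and to 82.1 and 72.2 against 115 and 102 in the PR domain set. Neural progenitor markers, a list of 5, had 5 lower in the Prdm16 set and 3 lower in the PR domain set, with none higher. Their sum was 1337 and 1326 against 717 and 702 in the first set. It was 1647 and 1612 against 1116 and 1120 in the second. Of all loci, 21.1% and 10.7% were called lower. The part of chondrocytes, notochord and neural progenitors in the Col2a1 result was not tested. The name cartilage collagens therefore refers to the known role of these genes and not to a tissue shown in the samples.

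The remaining collagens were a mixed set. Col26a1, which encodes a little-studied collagen, fell in both knockouts, from 442 and 383 to 166 and 174 (-1.27 ± 0.10, adjusted p = 1.29e-11) and from 519 and 584 to 239 and 289 (-1.06 ± 0.10, adjusted p = 1.36e-09). Col8a2, a short-chain collagen of the membrane under the corneal endothelium, rose in both knockouts. It went from 294 and 299 to 663 and 652 (1.15 ± 0.08, adjusted p = 3.86e-13) and from 459 and 392 to 768 and 773 (0.86 ± 0.08, adjusted p = 4.67e-10). Its partner Col8a1, at 17.0 to 51.7, was called in neither. Of the transmembrane collagens, Col23a1 fell from 265 and 259.6 to 158 and 124 (-0.90 ± 0.13, adjusted p = 9.9e-07) and from 219 and 188 to 114 and 118 (-0.80 ± 0.13, adjusted p = 1.44e-05). Col13a1 went from 137 and 151 to 251 and 210.1 in the Prdm16 knockout (0.67 ± 0.13, adjusted p = 0.000159). In the PR domain set it had 138 and 192 against 195 and 206 (0.30 ± 0.13, adjusted p = 0.125), a change that was called without PR domain control replicate 2 (0.53). Col25a1 rose in the Prdm16 knockout from 86.9 and 81.8 to 133 and 114 (0.54 ± 0.14, adjusted p = 0.00195). Calls lost on log2(FPKM + 1) were those of Col26a1 in the PR domain knockout (-0.96), Col23a1 in both (-0.90 and -1.03) and Col25a1 (0.25).

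Among the fibril-associated collagens, which sit on the surface of fibrils, Col12a1 fell and Col16a1 rose in both knockouts. Col12a1 went from 435 and 444 to 336 and 315 (-0.43 ± 0.07, adjusted p = 1.27e-05) and from 950.2 and 946 to 735 and 667 (-0.44 ± 0.07, adjusted p = 2.32e-05). The groups did not overlap, and the PR domain knockout still lay above the Prdm16 control. Col16a1 went from 243 and 206 to 309 and 305 (0.45 ± 0.08, adjusted p = 3.45e-05) and from 693 and 662 to 862 and 856 (0.34 ± 0.08, adjusted p = 0.00202). On log2(FPKM + 1) the Prdm16 change of Col16a1 had the opposite sign (-1.02, adjusted p = 0.00521). Its PR domain call (0.33, adjusted p = 0.206) and both Col12a1 calls (-0.19 and -0.44, adjusted p = 0.614 and 0.377) were lost there. Col14a1 went from 289 and 306 to 222 and 218 in the Prdm16 knockout (-0.43 ± 0.09, adjusted p = 0.00034) and stood at 373 and 325 against 367 and 388 in the PR domain set (0.11 ± 0.09, adjusted p = 0.445), and the Prdm16 call was lost on log2(FPKM + 1) (-0.31). Col20a1 (64.7 to 109, at a locus shared with 9230112E08Rik), Col22a1 (43.8 to 71.5) and the hemidesmosome collagen Col17a1 (10.3 to 22.3) were called in neither knockout.

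The 5 laminin alpha chains carry the receptor-binding end of the trimer. In the Prdm16 knockout 1 rose and 1 fell, about the share over all loci (39.1% called), and in the PR domain knockout 2 rose and 2 fell (19.2% of all loci called). Lama1, the alpha chain of the first embryonic basement membranes, stood at 1265 and 1376 normalised fragments in the Prdm16 control, 1288 and 1124 in its knockout, 677 and 686 in the PR domain control and 930.3 and 914 in the PR domain knockout. Both Prdm16 groups were above both PR domain groups. The rise of 0.43 ± 0.06 in the PR domain knockout was called (adjusted p = 3.46e-06), the Prdm16 change of -0.13 ± 0.06 was not (adjusted p = 0.093), although it was called without Prdm16 knockout replicate 1 (-0.23), and the effects differed by -0.57 ± 0.09 (adjusted p = 2.24e-05). Lama5, the most abundant alpha chain per length (66.0 to 74.5% of alpha chain FPKM), had 3249.6 and 3139, then 2953 and 2735, then 2519 and 2722, then 2711 and 2692 in the same groups. It was lower in the Prdm16 knockout (-0.17 ± 0.05, adjusted p = 0.00371), a call lost without Prdm16 control replicate 1 (-0.14) or Prdm16 knockout replicate 2 (-0.11), and stood at 0.05 ± 0.05 in the PR domain knockout (adjusted p = 0.565). The Lama1 rise (0.39) and the Lama5 fall (-0.30) were not called on log2(FPKM + 1).

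Lama2 is the alpha chain of muscle and peripheral nerve membranes, and Lama4 is that of vessels. Lama2 stood at 139.9 and 192 normalised fragments in the Prdm16 control, 342 and 365 in its knockout, 256 and 265 in the PR domain control and 458 and 373 in the PR domain knockout. It rose by 1.11 ± 0.12 (adjusted p = 4.83e-09) and 0.66 ± 0.12 (adjusted p = 5.96e-05), and the difference of 0.44 ± 0.16 was not called (adjusted p = 0.0622). Lama4 had 295 and 331, then 285 and 290.5, then 512 and 481, then 322 and 362 in the same groups, with a gap from control only in the PR domain set. It fell there (-0.54 ± 0.09, adjusted p = 2.66e-05) and stood at -0.12 ± 0.09 in the Prdm16 knockout (adjusted p = 0.309). The endothelial, cardiomyocyte and smooth muscle sums given with type IV collagen were lower in the PR domain knockout too, and their part in the Lama4 result was not tested. On log2(FPKM + 1) neither the Lama2 (0.45) nor the Lama4 (-0.59) change in the PR domain knockout was called. Lama3, at 13.2 to 49.7, fell from 49.7 and 49.5 to 25.1 and 25.6 in the PR domain knockout (-0.94 ± 0.30, adjusted p = 0.0227). Its call was not followed singly under the alternatives.

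Of the beta chains, Lamb1 made up 66.3 to 76.0% of beta chain FPKM in every library. It stood at 4135 and 4373 normalised fragments in the Prdm16 control, 4610.4 and 4706 in its knockout, 3792 and 3818 in the PR domain control and 4099.8 and 3789 in the PR domain knockout. The rise of 0.13 ± 0.04 in the Prdm16 knockout (adjusted p = 0.0111) was lost without Prdm16 control replicate 1 (0.09) or Prdm16 knockout replicate 2 (0.12). Lamb2, the beta chain of mature and synaptic membranes, had 918 and 928, then 1179 and 1054, then 949 and 983, then 860.3 and 946. It rose in the Prdm16 knockout by 0.27 ± 0.06 (adjusted p = 0.00075), not called on log2(FPKM + 1) for it (0.12) or for Lamb1 (0.14), and stood at -0.10 ± 0.06 in the PR domain knockout (adjusted p = 0.31). Lamb3 had 12.4 to 35.0 and was called in neither, although its PR domain change of 0.84 ± 0.32 (adjusted p = 0.066) was called without PR domain control replicate 1 (1.21).

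Lamc1, the common gamma chain, stood at 4053 and 4060.2 normalised fragments in the Prdm16 control, 3869.7 and 3854 in its knockout, 4601 and 4691 in the PR domain control and 4389 and 4189 in the PR domain knockout. Its change was not called in the Prdm16 knockout (-0.07 ± 0.04, adjusted p = 0.138) and was called in the PR domain knockout (-0.12 ± 0.04, adjusted p = 0.0275), but not without PR domain control replicate 1 (-0.13), PR domain control replicate 2 (-0.10) or PR domain knockout replicate 2 (-0.08), nor with TMM scaling (-0.09) or on log2(FPKM + 1) (-0.10). Lamc3 had 46.65 and 49.8 in the Prdm16 control, 38.5 and 26.4 in its knockout, 34.5 and 32.0 in the PR domain control and 55.6 and 76.1 in the PR domain knockout. It rose in the PR domain knockout (0.95 ± 0.24, adjusted p = 0.0047), a call lost without PR domain knockout replicate 2 (0.73) or on log2(FPKM + 1) (0.54). It stood at -0.58 ± 0.24 in the Prdm16 knockout (adjusted p = 0.0579), which was called without Prdm16 knockout replicate 1 (-0.84).

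Ratios of chains that share a trimer or a role were taken within each library, where the size factor cancels, and were not tested. Col1a1 to Col1a2 was 0.861 and 0.820 in the Prdm16 control, 1.23 and 1.18 in its knockout, 0.952 and 0.967 in the PR domain control and 1.05 and 1.09 in the PR domain knockout. The type I chains therefore shifted towards Col1a1 in both sets, with no overlap. Col4a1 to Col4a2 was 1.55 to 1.73 in all 8 libraries, with 1.67 and 1.73 in the PR domain control and 1.61 and 1.57 in the knockout where both fell, a small shift without overlap that the ratio of FPKM did not show (2.32 and 2.35 against 2.25 and 2.43). Col4a5 to Col4a1 was 0.269 and 0.275 in the Prdm16 control and 0.342 and 0.347 in its knockout, and 0.300 and 0.293 against 0.553 and 0.521 in the PR domain set. Col2a1 to Col1a1 was 0.108 and 0.113 against 0.0229 and 0.0251 in the Prdm16 set and 0.101 and 0.105 against 0.0394 and 0.0372 in the PR domain set. Col9a2 to Col9a1 was 2.53 and 2.18 against 6.53 and 7.37 in the Prdm16 set, and 4.64 and 4.01 against 4.13 and 4.73 in the PR domain set, where the groups overlapped. Lama2 to Lama4 was 0.475 and 0.580 against 1.20 and 1.26, and 0.499 and 0.552 against 1.42 and 1.03, so the ratio of fragments, which depends on gene length, lay above 1 in both knockouts. The ratio of FPKM rose as well, without overlap, from 0.343 and 0.380 to 0.867 and 0.897 and from 0.367 and 0.449 to 1.02 and 0.859.

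**Figure D5:**
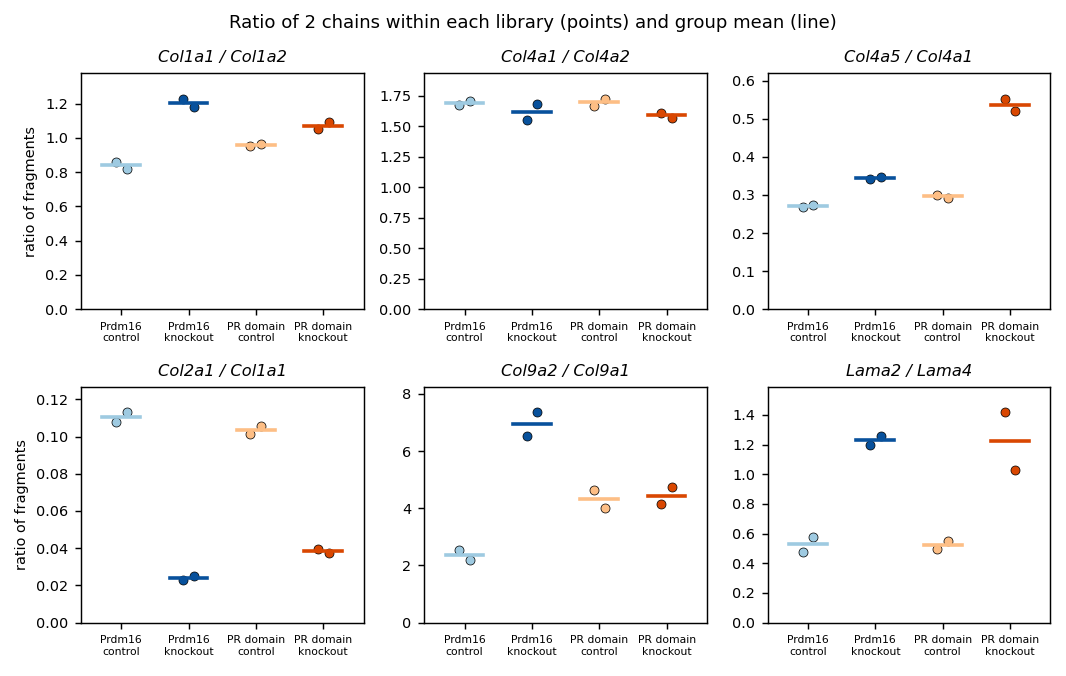
Ratio of the fragments of 2 chain genes within each library (points, 2 per group) with the group mean (line), each axis from 0. Col4a1 to Col4a2 stays between 1.55 and 1.73, while Lama2 to Lama4 rises from at most 0.580 in the controls to at least 1.03 in the knockouts and Col2a1 to Col1a1 drops from at least 0.101 in the controls to at most 0.0394 in the knockouts.

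The balance of classes moved the same way in both sets. Fibrillar chains made up 76.0% ± 1.02 (SD, n = 2) of collagen FPKM in the Prdm16 control and 80.3% ± 0.727 in its knockout, and 79.5% ± 0.220 in the PR domain control and 85.0% ± 0.161 in the PR domain knockout. Basement membrane chains made up 19.2% ± 1.18 and 15.4% ± 0.469, and 15.3% ± 0.0915 and 10.2% ± 0.124. Shares of a whole depend on each other, and Col3a1 dominates the fibrillar share. Its lead over the type I chains is larger by FPKM than by fragments, as given above.

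The effects of the 2 knockouts differed for 19 of the 46 genes, 9 with the Prdm16 effect above the PR domain effect and 10 with it below, against 16.4% of all loci (8.60% and 7.81%). By role these were 5 of 10 fibrillar genes, 3 of 7 basement membrane genes, 4 of 6 cartilage genes, 2 of 3 type VI genes and 6 of 11 laminin genes. The largest were Lamc3 (-1.53 ± 0.34, adjusted p = 0.00197) and Col9a2 (1.06 ± 0.10), the only called ones of at least 1 in size (3.30% of all loci). Neither was called on log2(FPKM + 1), at -0.52 (adjusted p = 0.39) and 0.91 (adjusted p = 0.0569). The 2 chain genes called there, Col16a1 (-1.35) and Col22a1 (1.10), are not among the 19. The test compares effects that each rest on their own control set, so a difference between the control sets enters it.

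The control sets, both labelled WT, differed from each other in 32 of these genes. Of the 46, 28 were higher and 4 lower in the PR domain control than in the Prdm16 control, against 33.0% of all loci (16.3% higher, 16.7% lower). The median was 0.34, beside -0.00 over all loci. The fibrillar genes had 7 of 10 higher and none lower, the basement membrane genes 6 of 7 higher and none lower, and type VI collagen 3 of 3 higher. Differences of at least 1 in size were called for 5 genes (6.88% of all loci). Col16a1 differed most (1.59 ± 0.08, adjusted p = 2.54e-16), followed by Col8a1 (1.31 ± 0.27, adjusted p = 0.000334), Lama3 (1.21 ± 0.30, adjusted p = 0.00182), Col12a1 (1.11 ± 0.07, adjusted p = 9.6e-14) and Col5a2 (1.09 ± 0.03, adjusted p = 8.65e-22). The 4 lower genes were Col23a1, Lama1, Lama5 and Lamb1, of which Lama1 differed most (-0.95 ± 0.06, adjusted p = 1.56e-13). As a result the Prdm16 control was the lowest and the PR domain knockout the highest of the 4 groups for 14 genes, among them Col1a1, Col3a1, Col5a2 and the type VI genes. Visceral endoderm markers differed between the control sets too, with sums of 36769 and 38418 against 5378 and 5655. All 8 of these markers were also higher in each knockout, with sums of 77865 and 78500 (Prdm16) and 10038 and 9950 (PR domain). The shares of all loci called higher were 18.0% and 8.48%. Their part in the matrix differences was not tested.

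Genes that make, process and receive these chains were read from 6 lists of 76 tested genes. In the Prdm16 knockout 29 rose and 17 fell, where 18.0% of all loci were called higher and 21.1% lower. In the PR domain knockout 22 rose and 12 fell, where the shares were 8.48% and 10.7%. On log2(FPKM + 1) 23 and 3 of these genes were called. Genes of collagen synthesis, folding and export had 13 higher and 1 lower of 19 in the Prdm16 knockout (median 0.33) and 6 higher and 1 lower in the PR domain knockout (median 0.07). P4ha1, a subunit of the prolyl hydroxylase that stabilises the triple helix, went from 1881 and 1886 to 3042 and 2977 in the Prdm16 knockout (0.68 ± 0.04, adjusted p = 1.91e-13) and rose by 0.21 ± 0.04 in the PR domain knockout (adjusted p = 0.000485). Plod2, a lysyl hydroxylase, rose in the Prdm16 knockout by 0.59 ± 0.05 (adjusted p = 2.95e-11). So did Serpinh1, the collagen chaperone, from 10206 and 10043 to 13729.5 and 13186 (0.41 ± 0.03, adjusted p = 2.49e-11).

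Of 12 genes that trim and cross-link collagen, 4 rose and 3 fell in the Prdm16 knockout, and 5 rose and none fell in the PR domain knockout. Lox, the lysyl oxidase that cross-links fibres, went from 334 and 335 to 475 and 499.5 (0.54 ± 0.07, adjusted p = 2.22e-07) and from 592 and 597 to 876 and 847 (0.53 ± 0.07, adjusted p = 6.56e-07). Its relative Loxl1 rose by 0.83 ± 0.08 (adjusted p = 9.14e-10) and 0.55 ± 0.08 (adjusted p = 3.61e-06). Bmp1, the protease that removes the C-terminal propeptide, fell in the Prdm16 knockout (-0.44 ± 0.07, adjusted p = 3.76e-06). Other basement membrane proteins had 5 higher and 5 lower of 14, and 6 higher and 4 lower. Nid2, a linker of laminin and type IV collagen, rose in both (0.57 ± 0.04, adjusted p = 1.15e-13, and 0.45 ± 0.04, adjusted p = 4.37e-11), as did Fbln2 (1.05 ± 0.05, adjusted p = 7.25e-17, and 0.58 ± 0.05, adjusted p = 1.21e-10). Frem2, of the epithelial Fraser complex, fell in the Prdm16 knockout from 1408 and 1409 to 635 and 617 (-1.17 ± 0.07, adjusted p = 9.76e-15) and in the PR domain knockout by less (-0.42 ± 0.07, adjusted p = 1.54e-05). The other members of that complex on the list, Fras1 and Frem1, went the other way in the PR domain knockout (0.61 ± 0.05, adjusted p = 4.43e-10, and 0.27 ± 0.06, adjusted p = 0.000785) and were not called in the Prdm16 knockout (adjusted p = 0.27 and 0.962).

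Of 15 receptor genes, 3 rose and 3 fell in the Prdm16 knockout, about the share over all loci (39.1% called), and 1 rose and 5 fell in the PR domain knockout (19.2% of all loci called). Itgb1, the beta subunit shared by collagen and laminin integrins, went from 7513 and 7491 to 8360 and 8422 in the Prdm16 knockout (0.16 ± 0.03, adjusted p = 0.000133) and from 10255 and 10309 to 7985 and 7783 in the PR domain knockout (-0.38 ± 0.03, adjusted p = 9.73e-11). Mrc2, which takes up collagen for breakdown, rose in both (0.55 ± 0.05, adjusted p = 3.58e-10, and 0.29 ± 0.05, adjusted p = 4.97e-05). Metalloproteinases and their inhibitors had 3 higher and 3 lower of 10, and 3 higher and 1 lower, beside the same 39.1% and 19.2% of all loci. Mmp2, a gelatinase, fell in the Prdm16 knockout (-0.20 ± 0.05, adjusted p = 0.00107) and rose in the PR domain knockout (0.20 ± 0.05, adjusted p = 0.00208). Other cartilage genes and regulators had 1 higher and 2 lower of 6 tested, and 1 higher and 1 lower, so the list did not move in 1 direction. Sox9, on this list, was called in neither knockout (-0.42 ± 0.17, adjusted p = 0.0563, and -0.34 ± 0.17, adjusted p = 0.19). Hapln1, which anchors cartilage proteoglycan, fell in both, from 688 and 726 to 439 and 397 (-0.76 ± 0.07, adjusted p = 9.98e-10) and from 655 and 614 to 426 and 431 (-0.56 ± 0.07, adjusted p = 6.24e-07), as Col2a1 did.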

How the data were processed

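RNA-seq was measured in 8 libraries of embryoid bodies, 2 in each of 4 groups. Groups and replicate numbers came from the titles. Tools in the submitters' processing notes are TopHat2 2.1.1, SAMtools 1.5, Cufflinks 2.2.1 and deepTools. The build is mm10. Annotation release and strand setting are not given among these sources.

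The authors deposited signal values, which are fragments per locus over a size factor of the library, as headers and values show. Dividing a library by its step (0.827 to 1.24) left 99.99 to 100% of values whole to within 0.1. The authors also deposited FPKM, used here for levels per length and as an alternative. Loci without a gene name (787, 1.88 to 2.53% of fragments) stayed out. Coordinates are from GENCODE M21 (GRCm38).

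The design foresaw edgeR for raw counts. Because the table was already normalised, limma 3.58.1 (R 4.3.3) was fitted with a trend to log2(value + 1), with a pseudocount of 1, over 16623 loci with at least 10 in 2 or more libraries. The model held 4 group means, with 4 residual and 25.4 prior degrees of freedom. It compared each knockout with its control, the knockout effects with each other and the control sets with each other. The scripts were tested on simulated data. No pair of replicates was within sampling noise (chi-square per degree of freedom 1.39 to 2.17).

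Members and gene lists were chosen with earlier results of these data known. Library values were given for the up to 4 genes of each role with the highest mean FPKM, genes called with a log2 change of 1 or more, and genes called in opposite directions or for the difference. For Col18a1, Col8a1, Col22a1 and Lamb3 the text prints only a range, and for Col25a1 only the Prdm16 set. For collagen partner lists the rule took up to 4 called genes per list and knockout with the smallest adjusted p, of which the text prints some. Of the chain genes, 1 enters the counts and is not reported here by itself. Alternatives were TMM, DESeq2 and total-fragment scaling, pseudocounts of 0.5 and 5, no filter, FPKM, edgeR 4.0.16, DESeq2 1.42.0, limma-voom, a replicate block, a fit to 4 libraries and leaving out each library. On recovered fragments edgeR called 6470 loci for the Prdm16 comparison and 3418 for the PR domain comparison.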

Additional observations from a re-analysis of the deposited data

Results flagged for a closer look

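Differences in response between the knockouts are given here for single chain genes, as the Prdm16 effect minus the PR domain effect on the log2 scale with limma's SE and adjusted p. In the fibrillar group Col1a2 (-0.42 ± 0.04, adjusted p = 6.27e-09), Col2a1 (-0.83 ± 0.07, adjusted p = 6.59e-10) and Col11a1 (-0.66 ± 0.11, adjusted p = 6.4e-05) had the lower effect in the Prdm16 knockout. Col5a1 (0.18 ± 0.05, adjusted p = 0.0259) and Col5a2 (0.25 ± 0.05, adjusted p = 0.000368) had the higher one. The Col5a1 difference was not called without Prdm16 control replicate 2 (0.14), Prdm16 knockout replicate 1 (0.12), PR domain control replicate 2 (0.14) or PR domain knockout replicate 1 (0.17).

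In basement membrane and type VI collagen, the Prdm16 effect was the higher for Col4a1 (0.60 ± 0.05, adjusted p = 4.85e-11), Col4a2 (0.57 ± 0.05, adjusted p = 2.72e-09), Col4a6 (0.28 ± 0.08, adjusted p = 0.0131) and Col6a1 (0.25 ± 0.08, adjusted p = 0.0217), and the lower for Col6a3 (-0.35 ± 0.09, adjusted p = 0.00479). The Col4a6 difference was not called without Prdm16 control replicate 1 (0.21), Prdm16 knockout replicate 1 (0.25), PR domain control replicate 1 (0.27) or PR domain knockout replicate 2 (0.21). That of Col6a1 was not called without Prdm16 control replicate 1 (0.22), Prdm16 knockout replicate 1 (0.22), PR domain control replicate 1 (0.22) or PR domain knockout replicate 1 (0.19).

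In type IX collagen Col9a2 (1.06 ± 0.10, adjusted p = 1.29e-09) and Col9a3 (-0.84 ± 0.22, adjusted p = 0.00836) differed in opposite directions, the second not without Prdm16 control replicate 2 (-0.74). Col14a1, a fibril-associated collagen, differed by -0.55 ± 0.13 (adjusted p = 0.00336). Among laminins the differences were -0.57 ± 0.09 for Lama1 (adjusted p = 2.24e-05), 0.42 ± 0.12 for Lama4 (adjusted p = 0.0186), -0.21 ± 0.06 for Lama5 (adjusted p = 0.0206), 0.37 ± 0.09 for Lamb2 (adjusted p = 0.00333) and -1.53 ± 0.34 for Lamc3 (adjusted p = 0.00197). Lama4 was not called without Prdm16 control replicate 1 (0.34), PR domain control replicate 1 (0.38) or PR domain knockout replicate 1 (0.34), and Lama5 not without Prdm16 control replicate 1 (-0.19), Prdm16 knockout replicate 2 (-0.16) or PR domain control replicate 1 (-0.16). On FPKM values the Lamb2 difference was -0.03.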

How the results depend on the processing

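Counts of called collagen and laminin chain genes stayed within 1.5 times the reported ones under the scaling, pseudocount, filter and test alternatives, except on log2(FPKM + 1) and for 1 DESeq2 count. On log2(FPKM + 1) the collagen and laminin counts were 16 in the Prdm16 knockout, 8 in the PR domain knockout, 2 for the difference and 17 between controls, and the collagen partner counts were 23 and 3. The DESeq2 Wald test called 11 chain genes for the difference. The cause was not tested. Leaving out 1 library at a time gave 27 to 30, 25 to 26, 15 to 22 and 28 to 33 chain genes in the same order, and 39 to 41 and 30 to 33 partners. Libraries with the same replicate number showed no shared shift (correlations of deviations -0.0363 to 0.0311). That cannot tell whether they were prepared together. With the replicate block the collagen and laminin counts were 30, 29, 20 and 32 and the partner counts 47 and 34. Single chain genes were followed if they met the rule for library values, which left out Col11a2, Col17a1, Col20a1, Col24a1, Col27a1 and Lama3. Of 1280 refitted values of these single genes in the 2 knockout comparisons, 1166 stayed on their side of the threshold, 92 lost the call, 21 gained one, and 1 reversed, Col16a1 in the Prdm16 knockout on log2(FPKM + 1) (-1.02). Of 758 refitted differences between the knockouts, 687 stayed on it, 52 lost the call, 17 gained one and 2 reversed on log2(FPKM + 1), Col16a1 (-1.35) and Lamb2 (-0.03). Over all loci, in the fits that gave the collagen and laminin counts, the split of higher and lower calls moved with scaling, from 2987 and 3515 to 3582 and 2927 with TMM in the Prdm16 knockout, and from 1410 and 1780 to 1678 and 1405 with DESeq2 scaling in the PR domain knockout. Depth limits genes with under about 50 normalised fragments, such as Col7a1, Lama3, Lamb3 and Lamc3, where SE was 0.24 to 0.34.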
